A study of Saccharomyces cerevisiae with 36 samples.

Results

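The genes described here are the 3 pyruvate decarboxylases of budding yeast, PDC1 (YLR044C), PDC5 (YLR134W) and PDC6 (YGR087C), and 5 of its alcohol dehydrogenases, ADH1 (YOL086C), ADH2 (YMR303C), ADH3 (YMR083W), ADH4 (YGL256W) and ADH5 (YBR145W). They were taken by name and systematic ID from a table of 5798 protein-coding genes (called mRNAs below), and all 8 passed the filter on low values. RNA levels were measured in 32 strand-specific RNA-seq libraries, and capped 5' ends were mapped by CAGE in 4 further samples. The series asks how nonsense-mediated decay limits long non-coding RNAs, and the same libraries hold the mRNAs of the fermentation genes.

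Pyruvate decarboxylase removes carbon dioxide from pyruvate, the end product of glycolysis, with thiamine pyrophosphate as cofactor, and alcohol dehydrogenase reduces the resulting acetaldehyde to ethanol and regenerates NAD+. PDC1 and ADH1 encode the main isozymes of fermenting yeast, PDC5 and PDC6 encode minor decarboxylases, ADH2 encodes the isozyme that oxidises ethanol and is repressed by glucose, and ADH3 encodes a mitochondrial isozyme. ADH4 belongs to a distantly related family of metal-dependent dehydrogenases and is known to be induced on zinc limitation, and ADH5 encodes a minor isozyme. Cytoplasmic mRNAs are decapped by Dcp2 and then degraded from the 5' end by the exonuclease Xrn1, and Upf1 directs RNAs with aberrant translation termination to this pathway.

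Cells lacking Xrn1 were compared with their wild type in 4 settings, namely S288C (xrn1D strain YAM6 against YAM1), W303 (YAM97 against YAM92), haploid SK1 (YAM2087 against YAM1977) and diploid SK1, written SK1_2n (xrn1D/xrn1D YAM2068 against YAM2067). The temperature-sensitive decapping mutant dcp2-7 (YAM2283) was set against wild type YAM1, both labelled 37 °C (dcp2_37C and WT_37C). Cells lacking Upf1 (YAM202, upf1) were set against a further set of YAM1 libraries (WT_UPF1), and both mutants share the S288C background. These 12 groups of 2 biological replicates each were depleted of rRNA. A further 4 groups of 2 (xrn1_S288C_Ter, WT_S288C_Ter, dcp2_37C_Ter and WT_37C_Ter) came from RNA digested with Terminator, an exonuclease that attacks a 5'-monophosphate and spares capped ends. The CAGE samples were dcp2-7 and wild type, 2 of each, grown to mid-log phase in rich medium and shifted to 37 °C for 2 h. Each genotype is represented by 1 strain, and the growth conditions of the RNA-seq cultures were not given in the sources used here.

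Levels are given as the authors' density, which is reads per nucleotide multiplied by 1 factor per library that makes the summed signal of 77 snoRNAs equal. Being per length, it can be compared between genes. Changes are differences of log2(density + pseudocount) with the limma standard error (SE), tested over all features with Benjamini-Hochberg adjustment, and "higher", "lower" or "called" below means an adjusted p under 0.05 unless a sentence gives plain values. In xrn1 cells nearly every mRNA is higher on this scale, so many changes are also given on a second scale in which the libraries have the same median mRNA (the mRNA-median scale). The median change of all mRNAs is not exactly 0 there, and it was -0.301 to -0.139 between mutants and their wild types. A value with no scale named is on the deposited one. The rRNA-depleted libraries held 11021562 to 68466587 reads on features and the Terminator libraries 13208233 to 23350952. The median mRNA density was 0.784 to 1.12 in the 8 xrn1 libraries, 0.424 to 0.488 in dcp2_37C, 0.238 to 0.260 in upf1, 0.155 to 0.166 in WT_UPF1 and 0.219 to 0.277 in the 8 libraries of 4 other wild types. WT_SK1_2n stood apart, with a median mRNA density of 0.0725 and 0.0876 and with snoRNAs taking 16.6% to 18.5% of reads, against 9.34% to 13.1% in those 8 wild-type libraries. Its part in the results on SK1_2n below was not tested.

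The targeted genes matched the labels. XRN1 averaged 0.00354 in xrn1_S288C against 1.6 in WT_S288C, and in W303, SK1 and SK1_2n its log2 change was -7.32, -6.73 and -5.51. NAM7, the gene for Upf1, averaged 0.00119 in upf1 and 0.585 in WT_UPF1, and the level of DCP2 cannot check a point allele. The 4 alpha-cell markers summed to 1.79 in xrn1_SK1_2n and 5.22 in WT_SK1_2n, against 34.9 in xrn1_SK1, 20.7 in WT_SK1 and 0.120 in WT_S288C. The 6 haploid-specific genes summed to 0.351 in WT_SK1_2n and 2.67 in WT_SK1. Alpha-cell RNA, which an a/alpha diploid represses, was thus present in the libraries labelled diploid, and haploid SK1 carried alpha-cell genes where WT_S288C carried a-cell genes (summed a-cell markers 0.130 in WT_SK1 and 24 in WT_S288C).

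The decarboxylases and the cytoplasmic dehydrogenases are close copies, which bears on how far 50-nt reads can tell them apart. The stretches below, from the R64 reference of S288C, are shown because they are identical in a pair of paralogs. The first lies at bases 193 to 242 of both ADH1 (chrXV:160353-160402, minus strand) and ADH2 (chrXIII:874096-874145, minus strand), and the second at bases 346 to 395 of both PDC1 (chrXII:233687-233736, minus strand) and PDC5 (chrXII:411068-411117, plus strand).
ADH1 and ADH2: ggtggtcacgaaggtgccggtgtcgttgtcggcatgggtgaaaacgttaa
PDC1 and PDC5: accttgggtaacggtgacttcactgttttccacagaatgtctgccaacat
ADH1 and ADH2 were identical at 88.8% of coding positions, and 140 of their 998 50-base windows were shared exactly. PDC1 and PDC5 were identical at 87.2% and shared 16 of 1643 windows exactly, while PDC6, ADH3, ADH4 and ADH5 had no 50-base window found unchanged elsewhere in the genome. With up to 2 mismatches, 220 of the 998 windows of ADH1 matched ADH2 (22.0%), and 179 of the 1643 of PDC1 matched PDC5 (10.9%). The counting rule for reads that match both copies is not known. In WT_W303 replicate 2, ADH2 had 4 reads beside 89405 of ADH1, and PDC5 had 296 beside 252692 of PDC1. At most these 4 and 296 reads can have come from ADH1 and PDC1 there. Most reads of the windows that ADH1 shares with ADH2 were thus not counted to ADH2 in this library. Whether shared reads make up part of the low values of ADH2 and PDC5, or were left out of them, was not tested. Those values are uncertain to that extent.

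The first 60 coding bases show where the copies do differ. Capitals mark bases that differ from PDC1 in the first 3 lines and from ADH1 in the last 2.
PDC1: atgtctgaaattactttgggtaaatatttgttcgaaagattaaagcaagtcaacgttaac
PDC5: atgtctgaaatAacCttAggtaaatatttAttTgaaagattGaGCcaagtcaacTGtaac
PDC6: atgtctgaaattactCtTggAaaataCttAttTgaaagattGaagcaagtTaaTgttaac
ADH1: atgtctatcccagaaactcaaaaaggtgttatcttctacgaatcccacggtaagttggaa
ADH2: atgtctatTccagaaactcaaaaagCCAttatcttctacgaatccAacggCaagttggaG
PDC5 differed at 10 and PDC6 at 9 of these 60 bases, and ADH2 at 7. The stretches lie at chrXII:234022-234081 (PDC1, minus strand), chrXII:410723-410782 (PDC5, plus strand), chrVII:652922-652981 (PDC6, minus strand), chrXV:160535-160594 (ADH1, minus strand) and chrXIII:874278-874337 (ADH2, minus strand). The other members lie at chrXIII:434788-435915 (ADH3, plus strand), chrVII:15159-16307 (ADH4, plus strand) and chrII:533762-534817 (ADH5, plus strand).

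The 8 genes spanned almost the whole range of mRNA levels. PDC1 ranged from 67.4 to 178 over the 24 rRNA-depleted libraries with a median of 124 and was between the 2nd and the 7th highest of all mRNAs. ADH1 ranged from 34.8 to 106 with a median of 79.5 and ranked 3rd to 19th. Both isozymes of the main pathway were thus near the top in every rRNA-depleted library, and together they took 1.80% to 2.02% of mRNA reads in xrn1 libraries and 3.39% to 4.08% in the 8 libraries of the 4 other wild types. ADH3 had a median of 3.72, ADH4 of 0.814, PDC5 of 0.358 and ADH5 of 0.339. ADH2 ran from 0.00366 to 5.63 and PDC6 from 0.00119 to 0.0337, which is 4 to 243 reads per library. PDC1 made up 98.9% to 99.9% of the summed density of the 3 decarboxylases and ADH1 86.7% to 95.9% of that of these 5 dehydrogenases.

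In WT_S288C the order was PDC1 at 150.2 ± 1.23 (SD, n = 2 for each gene), ADH1 at 105 ± 0.793, ADH3 at 4.49 ± 0.11, ADH4 at 0.545 ± 0.0207, ADH5 at 0.192 ± 0.000904, PDC5 at 0.155 ± 0.00497, ADH2 at 0.0243 ± 0.000986 and PDC6 at 0.00431 ± 0.000668. No neighbours in this order overlapped. In all 4 SK1 groups ADH2 instead followed directly after ADH1, above ADH3. PDC1 and ADH1 overlapped in dcp2_37C and WT_37C, and PDC5 and ADH5 overlapped in xrn1_SK1_2n, WT_W303 and WT_37C. Across the 12 rRNA-depleted groups the highest mean was 2.23 times the lowest for PDC1 and 2.56 times for ADH1, against 675 times for ADH2, 30.3 times for ADH4, 19.3 times for PDC6, 11.1 times for ADH3, 9.91 times for PDC5 and 7.78 times for ADH5. This order of spread depends on the scale. As a multiple of the median mRNA density, PDC1 ran from 141 (xrn1_SK1_2n) to 963 (WT_SK1_2n). ADH1 ran from 75.1 (xrn1_W303) to 511 (WT_UPF1), and ADH4 only from 1.62 (WT_SK1_2n) to 4.59 (upf1).

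**Figure D1:**
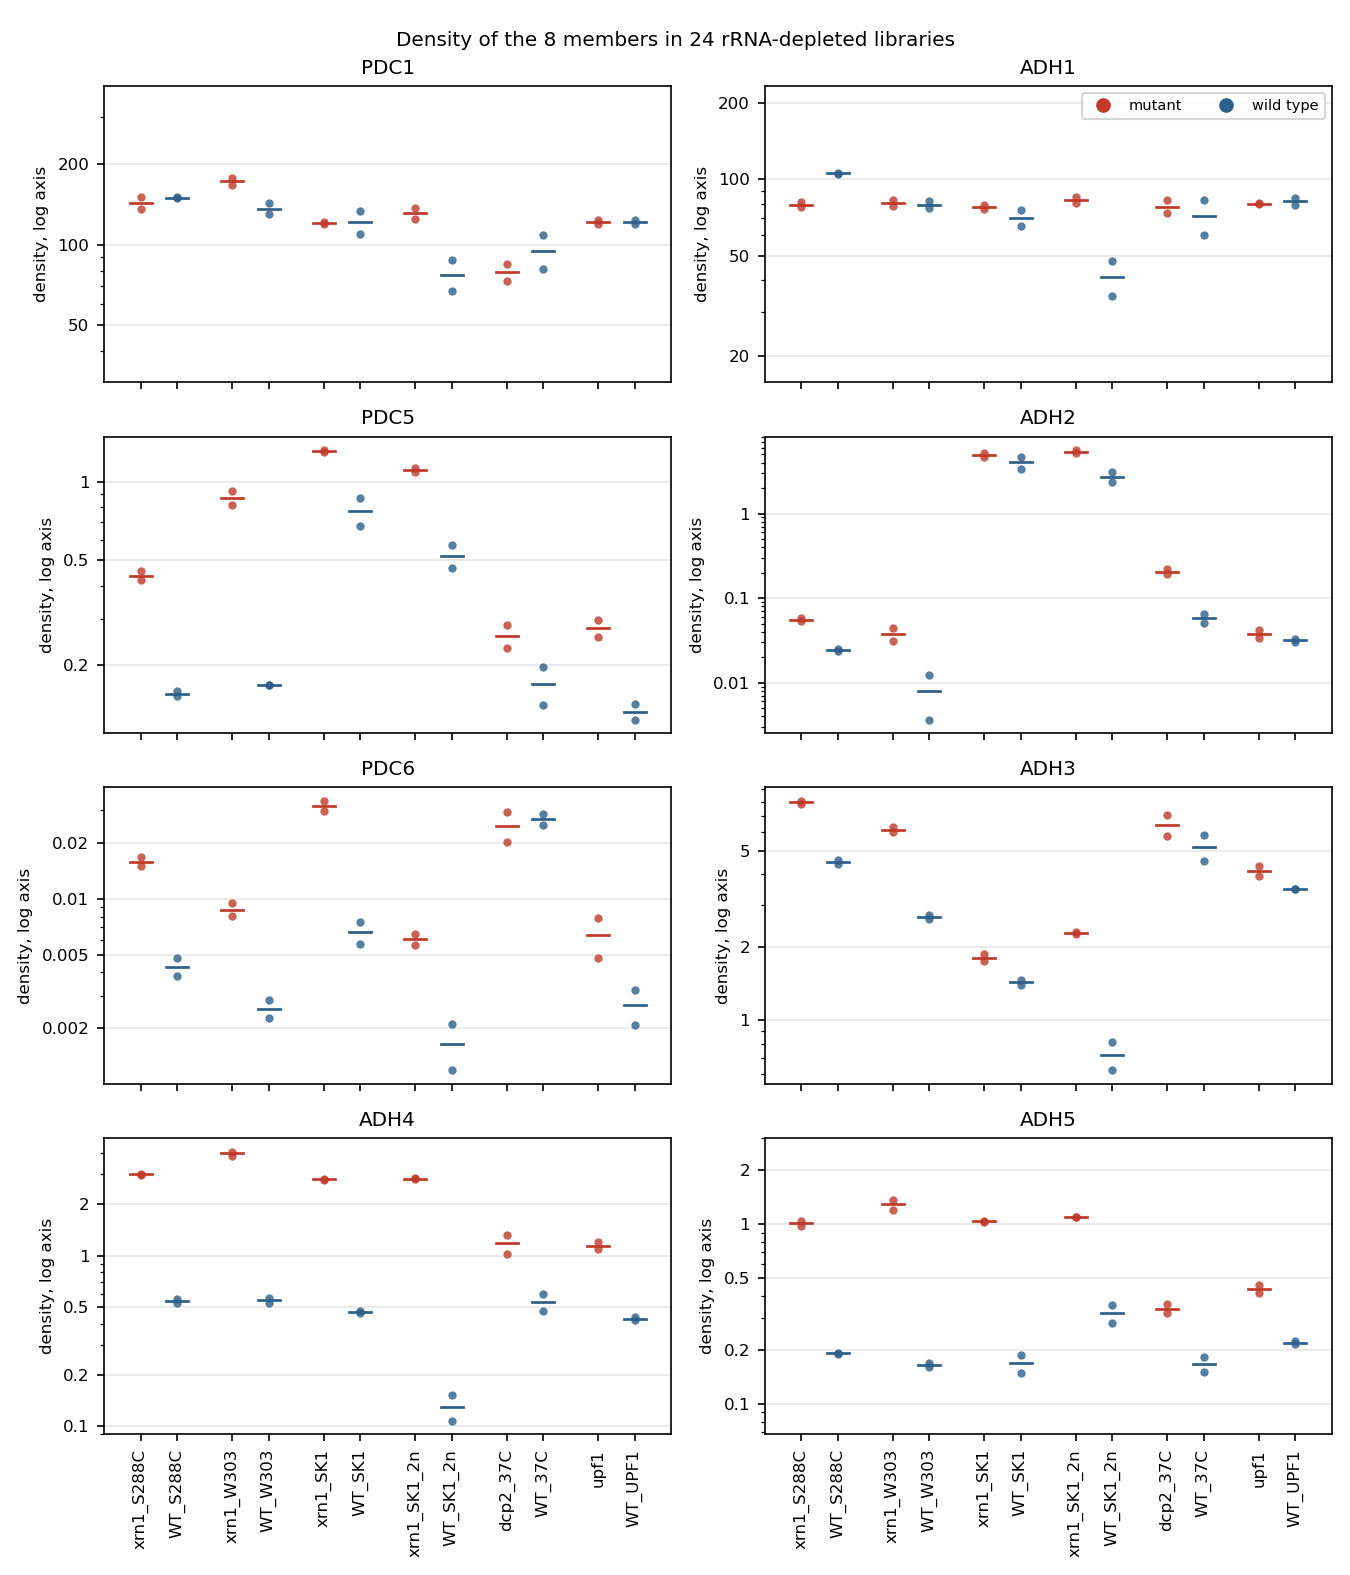
Density of each of the 8 genes (log axis, reads per nucleotide scaled to snoRNAs) in the 12 rRNA-depleted groups, 2 points per group with a line at their mean, mutants in red to the left of their wild types in blue. PDC1 stays between 67.4 and 178 and ADH1 between 34.8 and 106, while ADH2 reaches 2.34 to 5.63 in the SK1 groups and ADH4 stands 5.49 to 21.6 times higher in xrn1 cells than in their wild types.

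In xrn1 cells PDC5, PDC6, ADH3, ADH4 and ADH5 were higher than in wild type in all 4 settings on the deposited scale and ADH2 in all except haploid SK1, while PDC1 and ADH1 stayed within 1.5 times of it in S288C, W303 and haploid SK1. On that scale 6 of the 8 genes were higher and 1 lower in xrn1_S288C, where 94.8% of all mRNAs were called higher and 0.26% lower. In W303 it was 7 higher and none lower (97.6% and 0.243% of mRNAs), in SK1 5 and none (92.9% and 1.08%), and in SK1_2n 8 and none (97.2% and 0.399%). In S288C, W303 and SK1 these shares of the 8 genes were smaller than the share of all mRNAs, and in SK1_2n nearly all mRNAs were higher too. The median change of the 8 genes was 1.07, 1.45, 0.55 and 1.06 on the log2 scale in S288C, W303, SK1 and SK1_2n, beside 1.58, 1.97, 1.55 and 3.14 for all mRNAs. On the mRNA-median scale 2 genes were higher and 6 lower in S288C (27.7% and 46.7% of mRNAs), 3 and 4 in W303 (29% and 46.2%), 2 and 5 in SK1 (31.2% and 46%), and 1 and 7 in SK1_2n (28.6% and 53%). ADH4 was the member called higher on both scales in all 4 settings.

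PDC1, the main decarboxylase, stood at 150.6 and 136 in xrn1_S288C against 149 and 151 in WT_S288C, and at 167 and 178 in xrn1_W303 against 130 and 143 in WT_W303. In haploid SK1 it was 119 and 122 in xrn1 cells and 134 and 110.1 in wild type, and in SK1_2n 138 and 124 in xrn1 cells and 67.4 and 87.4 in wild type. The groups overlapped in S288C and SK1 and lay apart in W303 and SK1_2n. The log2 change was -0.071 ± 0.13 (SE; limma adjusted p = 0.601) in S288C, 0.34 ± 0.13 (adjusted p = 0.0168) in W303, -0.0091 ± 0.13 (adjusted p = 0.953) in SK1 and 0.77 ± 0.13 (adjusted p = 7.33e-06) in SK1_2n. The call in W303 was lost without WT_W303 replicate 1 (adjusted p = 0.112) or xrn1_W303 replicate 2 (adjusted p = 0.0906). PDC1 was lower in all 4 settings on the mRNA-median scale, with log2 differences of -1.84, -1.79, -1.70 and -2.67.

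PDC5, a minor decarboxylase known to take over when PDC1 is lost, stood at 0.455 and 0.42 in xrn1_S288C against 0.158 and 0.151 in WT_S288C, and at 0.818 and 0.92 in xrn1_W303 against 0.166 and 0.168 in WT_W303. In SK1 it was 1.32 and 1.3 in xrn1 cells and 0.863 and 0.68 in wild type, and in SK1_2n 1.13 and 1.09 in xrn1 cells and 0.467 and 0.571 in wild type. The xrn1 libraries were above their wild type throughout, and the SK1 wild types were above the other wild types. In log2 terms it changed by 1.47 ± 0.15 (SE; limma adjusted p = 4.58e-09) in S288C, 2.34 ± 0.15 (1.05e-12) in W303, 0.77 ± 0.15 (6.62e-05) in SK1 and 1.09 ± 0.15 (4.55e-07) in SK1_2n. It was higher on the mRNA-median scale in W303 alone, by 0.21 (adjusted p = 0.0281), and lower in S288C, SK1 and SK1_2n, with log2 differences of -0.30, -0.92 and -2.35.

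PDC6, the least expressed decarboxylase, rested on few reads. It stood at 0.0168 and 0.0149 in xrn1_S288C (98 and 76 reads) against 0.00478 and 0.00383 in WT_S288C (18 and 30 reads). In xrn1_SK1 it stood at 0.0297 and 0.0337 (149 and 189 reads) against 0.00567 and 0.00751 in WT_SK1 (37 and 38 reads). The groups lay apart in all 4 settings. The log2 change was 1.10 ± 0.20 (SE; limma adjusted p = 2.00e-05) in S288C, 0.80 ± 0.20 (0.00069) in W303, 1.60 ± 0.20 (1.04e-07) in SK1 and 0.67 ± 0.20 (0.00311) in SK1_2n, on a scale where the pseudocount of 0.00577 shrinks changes of so low a gene. In W303 the call was lost when the model held these groups alone (adjusted p = 0.0609), and in SK1_2n with the larger pseudocount (adjusted p = 0.0503). With a pseudocount 10 times smaller the changes were larger, 1.75, 1.57, 2.18 and 1.61 in the same order, and with the larger pseudocount of 0.0364 they were smaller, 0.36, 0.21, 0.66 and 0.16. PDC6 was lower on the mRNA-median scale in S288C, W303 and SK1_2n (-0.67, -1.33 and -2.77) and was -0.088 in SK1 (adjusted p = 0.645).

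ADH1, the main fermentative dehydrogenase, was the member lower in xrn1_S288C on the deposited scale, with 77.5 and 81.1 there and 106 and 105 in WT_S288C. In W303 it was 78.2 and 83 in xrn1 cells and 76.8 and 81.9 in wild type, and in SK1 76.3 and 78.8 in xrn1 cells and 75.8 and 65.3 in wild type. The groups lay apart in S288C, overlapped in W303, and in SK1 the mutant libraries were slightly above. In SK1_2n it was 85.3 and 80.4 in xrn1 cells and 34.8 and 47.4 in wild type. Its log2 changes were -0.41 ± 0.13 (SE; limma adjusted p = 0.00524) in S288C, 0.023 ± 0.13 (0.873) in W303, 0.14 ± 0.13 (0.318) in SK1 and 1.03 ± 0.13 (1.06e-07) in SK1_2n. Relative to the median mRNA, ADH1 was lower in all 4, with log2 differences of -2.18, -2.11, -1.55 and -2.42.

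ADH2, the ethanol-oxidising isozyme, stood at 0.053 and 0.0588 in xrn1_S288C against 0.0236 and 0.025 in WT_S288C, and at 0.044 and 0.0315 in xrn1_W303 against 0.0124 and 0.00366 in WT_W303, where replicate 2 had 4 reads. In SK1 it was 4.68 and 5.23 in xrn1 cells and 4.66 and 3.4 in wild type, and in SK1_2n 5.63 and 5.21 in xrn1 cells and 2.34 and 3.13 in wild type. The mutant libraries were above both of their wild types in each setting, but in SK1 the nearest pair of libraries was almost equal. The log2 change was 1.04 ± 0.24 (SE; limma adjusted p = 0.000447) in S288C, 1.72 ± 0.24 (1.40e-06) in W303, 0.31 ± 0.24 (0.224) in SK1 and 1.00 ± 0.24 (0.000611) in SK1_2n. On the mRNA-median scale the values were -0.73, -0.41, -1.38 and -2.45, of which the one in W303 was not called (adjusted p = 0.121). With the larger pseudocount the changes of ADH2 were 0.60 in S288C and 0.74 in W303, both still called.

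ADH3, the mitochondrial isozyme, stood at 7.83 and 8.06 in xrn1_S288C against 4.41 and 4.57 in WT_S288C, and at 5.97 and 6.25 in xrn1_W303 against 2.62 and 2.73 in WT_W303. In SK1 it was 1.75 and 1.87 in xrn1 cells and 1.47 and 1.4 in wild type, and in SK1_2n 2.3 and 2.28 in xrn1 cells and 0.62 and 0.812 in wild type. The mutant libraries were above the wild type in all 4 settings. Its log2 changes were 0.82 ± 0.13 (SE; limma adjusted p = 4.27e-06) in S288C, 1.19 ± 0.13 (1.30e-08) in W303, 0.33 ± 0.13 (0.0235) in SK1 and 1.68 ± 0.13 (2.29e-11) in SK1_2n. The call in SK1 was lost without WT_SK1 replicate 2 (adjusted p = 0.0967) or xrn1_SK1 replicate 2 (adjusted p = 0.121). Relative to the median mRNA, ADH3 was lower in all 4, with log2 differences of -0.95, -0.94, -1.36 and -1.76.

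ADH4, the member from the distant, metal-dependent family, stood at 3.03 and 2.95 in xrn1_S288C against 0.53 and 0.559 in WT_S288C, and at 3.86 and 4.08 in xrn1_W303 against 0.527 and 0.569 in WT_W303. In SK1 it was 2.82 and 2.79 in xrn1 cells and 0.473 and 0.462 in wild type, and in SK1_2n 2.84 and 2.8 in xrn1 cells and 0.108 and 0.154 in wild type. The mutant means were 5.49, 7.24, 6.0 and 21.6 times the wild-type means in S288C, W303, SK1 and SK1_2n. As log2 changes these were 2.45 ± 0.15 (SE; limma adjusted p = 3.86e-13) in S288C, 2.84 ± 0.15 (1.94e-14) in W303, 2.57 ± 0.15 (2.25e-13) in SK1 and 4.39 ± 0.15 (2.76e-18) in SK1_2n. ADH4 was still higher on the mRNA-median scale, by 0.68, 0.71, 0.88 and 0.95, the opposite direction to PDC1, ADH1 and ADH3 there.

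ADH5, a minor isozyme, stood at 0.984 and 1.04 in xrn1_S288C against 0.191 and 0.193 in WT_S288C, and at 1.21 and 1.37 in xrn1_W303 against 0.162 and 0.17 in WT_W303. In SK1 it was 1.05 and 1.03 in xrn1 cells and 0.15 and 0.188 in wild type, and in SK1_2n 1.1 and 1.1 in xrn1 cells and 0.358 and 0.284 in wild type. The 8 mutant libraries lay between 0.984 and 1.37, and the wild type of SK1_2n was above the wild types of the other 3 settings. As log2 changes these were 2.36 ± 0.13 (SE; limma adjusted p = 1.21e-13) in S288C, 2.92 ± 0.13 (2.63e-15) in W303, 2.59 ± 0.13 (3.78e-14) in SK1 and 1.77 ± 0.13 (7.06e-12) in SK1_2n. Relative to the median mRNA, ADH5 was higher by 0.60, 0.79 and 0.90 in S288C, W303 and SK1, and lower in SK1_2n, at -1.67.

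**Figure D2:**
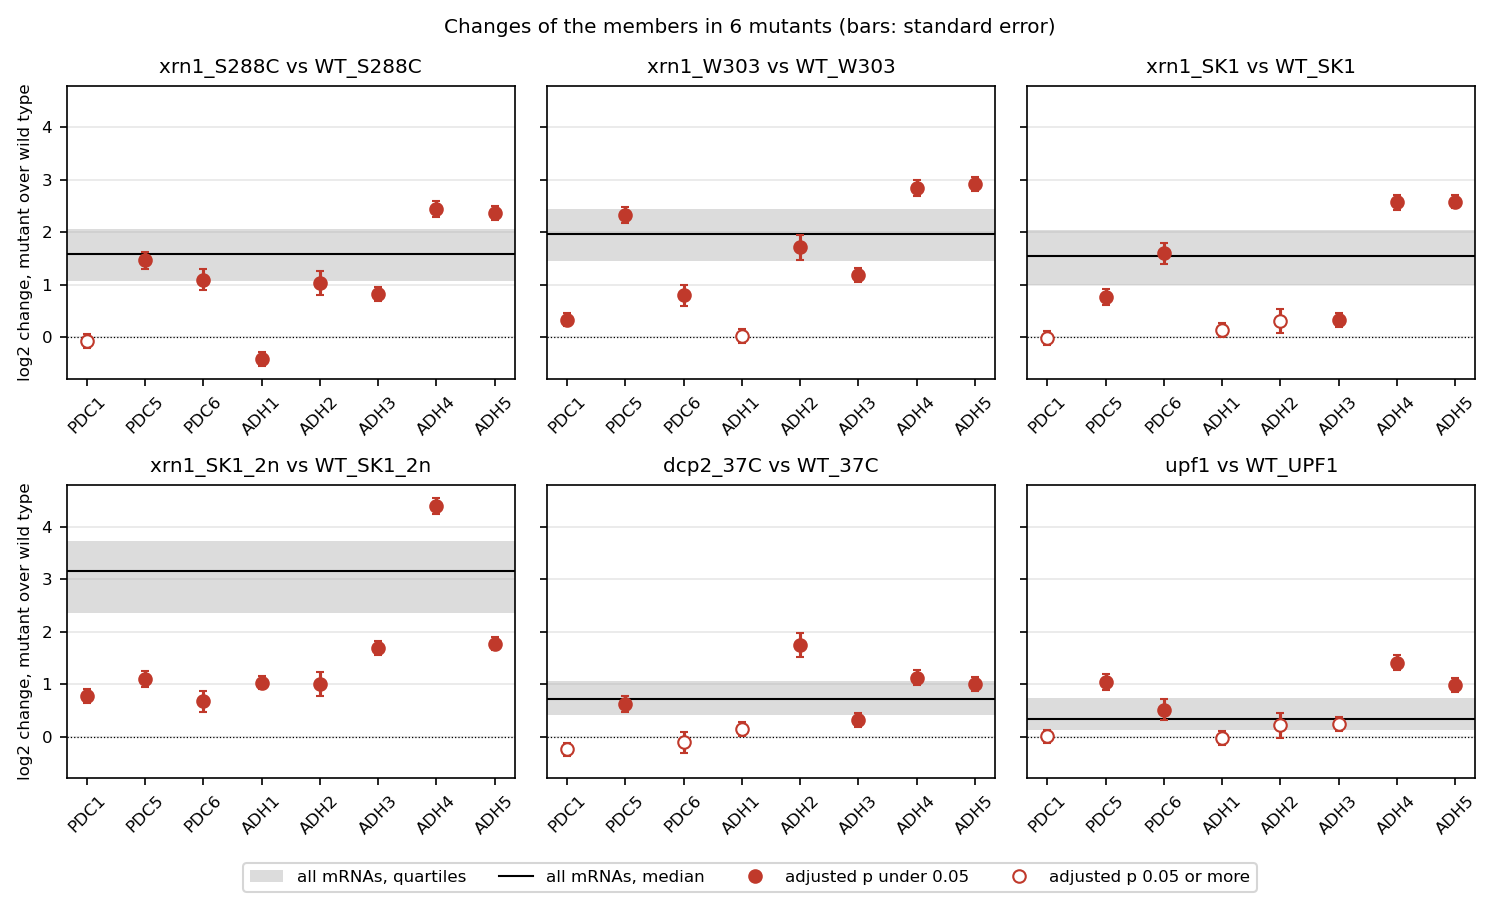
Log2 change of each gene on the deposited scale in the 6 mutants against their wild types (points, bars are limma SE, filled at an adjusted p under 0.05), with the median (line) and quartiles (band) of all mRNAs. ADH4 lies above the mRNA median in all 6 panels (2.45, 2.84, 2.57 and 4.39 in the xrn1 panels), while PDC1 and ADH1 lie below it in all 6.

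A ratio of genes within a library does not depend on how libraries are scaled. The share of PDC5 in PDC1 was 0.302% and 0.309% in xrn1_S288C against 0.106% and 0.10% in WT_S288C, and 0.489% and 0.516% in xrn1_W303 against 0.128% and 0.117% in WT_W303. In SK1 it was 1.11% and 1.07% in xrn1 cells and 0.645% and 0.618% in wild type. PDC5 thus gained on PDC1 in these settings. ADH4 relative to ADH1 was 3.91% and 3.64% in xrn1_S288C against 0.50% and 0.534% in WT_S288C, and 3.34% and 3.48% in xrn1_SK1_2n against 0.31% and 0.324% in WT_SK1_2n. ADH5 relative to ADH1 was 1.54% and 1.65% in xrn1_W303 against 0.21% and 0.207% in WT_W303.

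The 6 ratios of a minor to a main isozyme were tested with a two-sided exact permutation test of the mean log2 difference, xrn1 minus wild type, in which labels were exchanged within each of the 4 settings (1296 arrangements, smallest possible p 0.00154), with Benjamini-Hochberg adjustment over the 6. ADH4/ADH1 was higher by 2.87 (exact p = 0.00154, adjusted 0.00231), and by 2.86, 2.82, 2.43 and 3.36 in S288C, W303, SK1 and SK1_2n. ADH5/ADH1 was higher by 2.21, PDC5/PDC1 by 1.16 and ADH3/ADH1 by 0.81, each with the same exact permutation p and in 4 of 4 settings. PDC6/PDC1 was higher by 0.79 (exact p = 0.00772, adjusted 0.00926) and in 3 of 4 settings, with -0.10 in SK1_2n, where the plain share was 0.00468% and 0.00454% in xrn1 cells and 0.00176% and 0.0024% in wild type. This ratio is near the pseudocount, and with the smaller pseudocount its mean difference was 1.52 (exact p = 0.00154), while without SK1 it was 0.51 (exact p = 0.0463). ADH2/ADH1 was higher by 0.82 (exact p = 0.0185, adjusted 0.0185) in 3 of 4 settings, and the call was lost without S288C (0.61, exact p = 0.111), without W303 (0.53, exact p = 0.111) or without SK1 (1.04, exact p = 0.0556). On average over the settings each minor isozyme thus gained on the main one of its family, by amounts that differed between settings. ADH2/ADH1 moved by 1.45 in S288C and 1.70 in W303, against 0.17 in SK1 and -0.029 in SK1_2n. The median mRNA gained on both main isozymes too, so such a gain is not particular to the minor ones. On the mRNA-median scale PDC1 stood at -1.84, -1.79, -1.70 and -2.67 in S288C, W303, SK1 and SK1_2n. ADH1 stood there at -2.18, -2.11, -1.55 and -2.42. Only ADH4, of the minor isozymes, was called higher on that scale in all 4 settings.

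**Figure D3:**
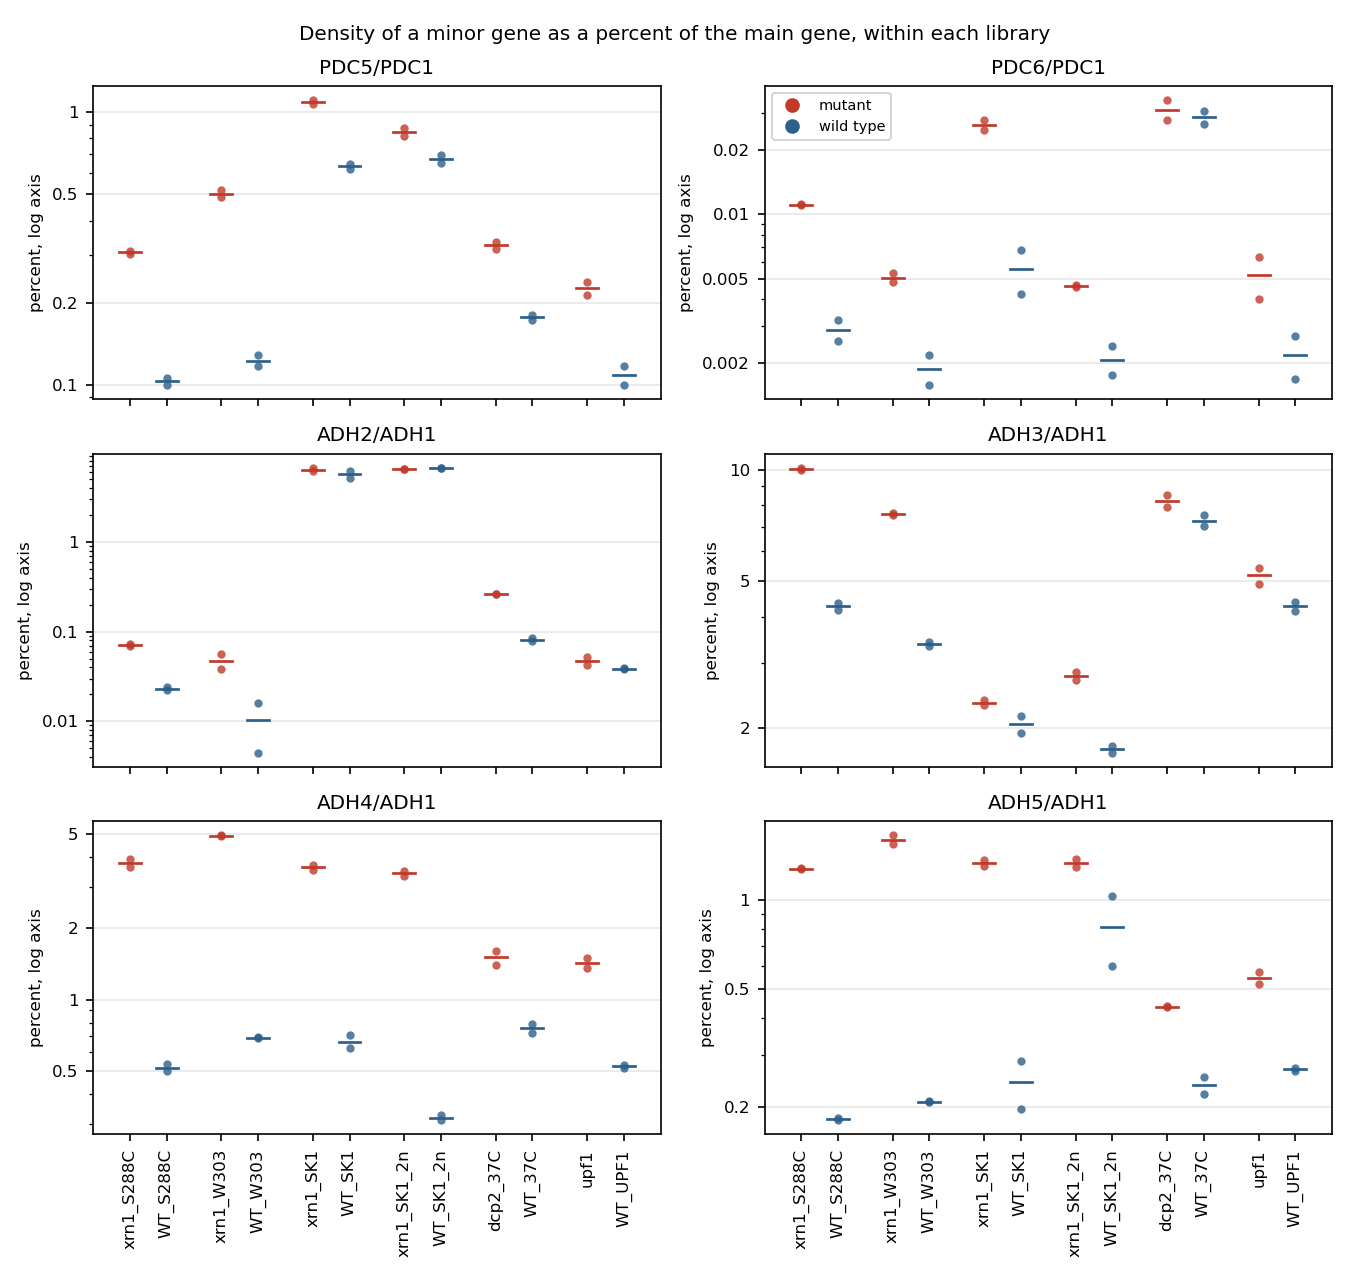
Minor isozyme as a percent of the main one of its family in each rRNA-depleted library (log axis, line at the group mean), mutants in red to the left of their wild types in blue. ADH4/ADH1 and ADH5/ADH1 are higher in xrn1 in all 4 settings, while ADH2/ADH1 lies at 5.21% to 6.72% in all SK1 libraries and at 0.00447% to 0.265% in the others.

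The xrn1 change of some members differed between backgrounds. Between W303 and S288C the difference of the changes was called for 2 members, both higher in W303 (29.2% of mRNAs higher and 3.73% lower). They were PDC5 (0.87 ± 0.22, SE; limma adjusted p = 0.00661) and ADH5 (0.55 ± 0.19, adjusted p = 0.0312), beside a median of 0.41 for all mRNAs. The call of ADH5 was lost without any of WT_S288C replicates 1 and 2, xrn1_S288C replicates 1 and 2, WT_W303 replicate 1 and xrn1_W303 replicate 2 (adjusted p 0.0668 to 0.133). Its value on the mRNA-median scale was 0.19 (adjusted p = 0.545). Without WT_W303 replicate 1, ADH2 was called (1.16, adjusted p = 0.00509).

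Between SK1 and S288C, 1 member was higher and 2 were lower (13.5% and 18.6% of mRNAs). ADH1 differed by 0.55 ± 0.18 (SE; limma adjusted p = 0.0199), PDC5 by -0.70 ± 0.22 (adjusted p = 0.0123) and ADH3 by -0.49 ± 0.19 (adjusted p = 0.0415). The call of ADH3 was lost without any 1 of the 8 libraries (adjusted p 0.0576 to 0.128). That of PDC5 was lost without xrn1_S288C replicate 1 (adjusted p = 0.0512) or WT_SK1 replicate 1 (adjusted p = 0.0678). That of ADH1 was lost without WT_S288C replicate 1, xrn1_S288C replicate 1, WT_SK1 replicate 2 or xrn1_SK1 replicate 2 (adjusted p 0.0520 to 0.0919). ADH4 did not differ detectably between these backgrounds (0.13 ± 0.21, adjusted p = 0.663). How far sequence differences of SK1 or W303 from the reference moved read counts was not tested.

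Between SK1_2n and SK1, 4 members were higher and 2 lower on the deposited scale (87.7% and 1.84% of mRNAs), and none were higher and 7 lower on the mRNA-median scale (20.1% and 42.9%). ADH4 differed most, by 1.82 ± 0.21 (SE; limma adjusted p = 4.96e-08), followed by ADH3 at 1.35 ± 0.19 (adjusted p = 9.93e-07). PDC6 (-0.93 ± 0.28, adjusted p = 0.00527) and ADH5 (-0.82 ± 0.19, adjusted p = 0.000426) were the lower members. The call of PDC6 was lost with the smaller pseudocount (adjusted p = 0.321) or with voom on recovered reads (adjusted p = 0.384), and ADH2 was called with the larger pseudocount (0.68, adjusted p = 0.00483). The median of all mRNAs differed by 1.55, and on the mRNA-median scale PDC1, ADH1 and ADH3 took the other direction (-0.97, -0.87 and -0.41), while ADH4 was 0.068 (adjusted p = 0.599).

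In dcp2-7 at 37 °C, ADH2 showed the largest change among the 8 genes. On the deposited scale 5 members were higher and none lower (80.2% and 1.55% of mRNAs), and on the mRNA-median scale 2 were higher and 5 lower (23.4% and 42.1%). The median change of the members was 0.46, against 0.71 for all mRNAs.

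ADH2 stood at 0.219 and 0.194 in dcp2_37C (969 and 845 reads) against 0.0511 and 0.0645 in WT_37C (309 and 336 reads), a log2 change of 1.74 ± 0.24 (SE; limma adjusted p = 2.93e-06). ADH4 stood at 1.33 and 1.03 in dcp2_37C against 0.476 and 0.60 in WT_37C, a change of 1.12 ± 0.15 (adjusted p = 5.18e-07). Both stayed higher on the mRNA-median scale, ADH2 by 0.89 (adjusted p = 0.00316) and ADH4 by 0.27 (adjusted p = 0.0064). ADH5 stood at 0.359 and 0.321 in dcp2_37C against 0.152 and 0.184 in WT_37C, a change of 1.00 ± 0.13 (adjusted p = 5.85e-07) that was 0.15 (adjusted p = 0.394) on the mRNA-median scale. PDC5 stood at 0.284 and 0.231 in dcp2_37C against 0.14 and 0.196 in WT_37C, a change of 0.61 ± 0.15 (adjusted p = 0.00102) with -0.24 on the mRNA-median scale. Without WT_37C replicate 1 the change of PDC5 was 0.38 (adjusted p = 0.0492).

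PDC1 stood at 85.1 and 73.5 in dcp2_37C against 81 and 109 in WT_37C (-0.25 ± 0.13, SE; limma adjusted p = 0.0873), and ADH1 at 82.5 and 73.3 in dcp2_37C against 60.2 and 82.7 in WT_37C (0.14 ± 0.13, adjusted p = 0.329). For both the mutant and wild-type libraries overlapped. Without WT_37C replicate 1, PDC1 was called lower (-0.46, adjusted p = 0.00672), and without WT_37C replicate 2, ADH1 was called higher (0.37, adjusted p = 0.017). ADH3 stood at 7.03 and 5.79 in dcp2_37C against 4.54 and 5.8 in WT_37C, and its call (0.31 ± 0.13, adjusted p = 0.0368) rests on overlapping groups and was lost without WT_37C replicate 1 (adjusted p = 0.412) or dcp2_37C replicate 1 (adjusted p = 0.335), and when the model held these groups alone (adjusted p = 0.162). On the mRNA-median scale PDC1, ADH1, ADH3 and PDC6 were lower, at -1.10, -0.71, -0.54 and -0.96. Without WT_37C replicate 2 the change of ADH3 on the deposited scale was 0.49. PDC6 was not called on the deposited scale (-0.11 ± 0.20, adjusted p = 0.635), with 0.0292 and 0.0203 in dcp2_37C and 0.0248 and 0.0287 in WT_37C.

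In upf1 cells ADH4, PDC5 and ADH5 were higher on both scales. On the deposited scale 4 members were higher and none lower (47% and 0.521% of mRNAs), and on the mRNA-median scale 3 were higher and 3 lower (21.3% and 54.2%). The median change was 0.38 for the members and 0.32 for all mRNAs.

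ADH4 stood at 1.2 and 1.09 in upf1 against 0.42 and 0.435 in WT_UPF1, a log2 change of 1.41 ± 0.15 (SE; limma adjusted p = 1.73e-08). PDC5 stood at 0.297 and 0.255 in upf1 against 0.141 and 0.123 in WT_UPF1, a change of 1.03 ± 0.15 (adjusted p = 3.57e-06). ADH5 stood at 0.457 and 0.417 in upf1 against 0.215 and 0.224 in WT_UPF1, a change of 0.98 ± 0.13 (adjusted p = 9.37e-07). The mutant libraries of all 3 genes lay above both wild-type libraries, and on the mRNA-median scale the changes were 0.79, 0.42 and 0.36 (adjusted p = 0.040 for ADH5). PDC6 was called on the deposited scale (0.51 ± 0.20, adjusted p = 0.0327) with 0.00786 and 0.00481 in upf1 against 0.00322 and 0.00209 in WT_UPF1, and this call was lost without WT_UPF1 replicate 1 (adjusted p = 0.0543), WT_UPF1 replicate 2 (adjusted p = 0.182) or upf1 replicate 1 (adjusted p = 0.298), and with the larger pseudocount (adjusted p = 0.154), while the smaller pseudocount gave 1.08.

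The main isozymes did not differ detectably on the deposited scale. PDC1 stood at 124 and 119.9 in upf1 against 120 and 124 in WT_UPF1 (0.0027 ± 0.13, SE; limma adjusted p = 0.988), and ADH1 at 80 and 80.3 in upf1 against 79.1 and 84.6 in WT_UPF1 (-0.029 ± 0.13, adjusted p = 0.864). On the mRNA-median scale PDC1, ADH1 and ADH3 were lower, at -0.61, -0.64 and -0.37. ADH2 was not called on either scale (0.22 ± 0.24, adjusted p = 0.46), with 0.0339 and 0.0418 in upf1 and 0.0301 and 0.0331 in WT_UPF1.

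The wild types differed from each other, and WT_S288C serves in 4 of these comparisons and in the xrn1 comparison, so they are not independent. The widest gap was ADH2 in haploid SK1. WT_SK1 had 4.66 and 3.4, against 0.0236 and 0.025 in WT_S288C, so that the SK1 mean was 166 times higher (log2 7.05 ± 0.24, SE; limma adjusted p = 1.43e-14). All 8 SK1 libraries, mutant, wild-type, haploid and diploid, lay above all 16 others. PDC5 was higher too, with 0.863 and 0.68 in WT_SK1 against 0.158 and 0.151 in WT_S288C (2.27 ± 0.15, adjusted p = 2.18e-11), and ADH3 was lower, with 1.47 and 1.4 in WT_SK1 against 4.41 and 4.57 in WT_S288C (-1.64 ± 0.13, adjusted p = 6.40e-10). In all 2 members were higher and 2 lower (19.1% and 29.7% of mRNAs), where the median mRNA stood at -0.11. The other lower member was ADH1, at -0.58 (adjusted p = 0.000766). PDC1, at -0.31, missed the threshold (adjusted p = 0.0521). It was called lower without WT_SK1 replicate 1 (adjusted p = 0.0187), with voom on recovered reads (adjusted p = 0.0279), with these groups alone (adjusted p = 0.0382), without the SK1_2n groups (adjusted p = 0.0288) and on the mRNA-median scale (-0.21, adjusted p = 0.00676). In cultures sequenced in bulk, more cells expressing ADH2 and more ADH2 RNA per cell cannot be told apart, and strain, mating type and culture cannot be told apart here either.

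WT_W303 had 3 members lower than WT_S288C and none higher (14.8% and 6.61% of mRNAs lower and higher), where the median mRNA stood at -0.11. ADH2 stood at 0.0124 and 0.00366 in WT_W303 against 0.0236 and 0.025 in WT_S288C (-1.20 ± 0.24, SE; limma adjusted p = 0.00126), and ADH3 at 2.62 and 2.73 in WT_W303 against 4.41 and 4.57 in WT_S288C (-0.75 ± 0.13, adjusted p = 0.000278). The mitochondrial and the ethanol-oxidising isozyme were thus both below their S288C level, and without WT_W303 replicate 2 the change of ADH2 was -0.73 (adjusted p = 0.0203). ADH1 was also called lower (-0.41 ± 0.13, adjusted p = 0.0257), a call lost without any 1 of the 4 libraries (adjusted p 0.0615 to 0.129).

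Diploid against haploid SK1 wild type gave 1 member higher and 7 lower on the deposited scale (0.747% and 94.2% of mRNAs) and 7 higher and 1 lower on the mRNA-median scale (40.9% and 26.7%), with a median of -1.41 for all mRNAs on the deposited scale. Directions of most members therefore depend on the scale here. ADH5 was higher on both, with 0.358 and 0.284 in WT_SK1_2n against 0.15 and 0.188 in WT_SK1 (0.91 ± 0.13, SE; limma adjusted p = 1.18e-06; 2.42 on the mRNA-median scale). ADH4 was lower on both, with 0.108 and 0.154 in WT_SK1_2n against 0.473 and 0.462 in WT_SK1 (-1.81 ± 0.15, adjusted p = 1.34e-10; -0.30 on the mRNA-median scale). The call of ADH2 on the deposited scale (-0.56, adjusted p = 0.0343) was lost without WT_SK1 replicate 1 (adjusted p = 0.286) or WT_SK1_2n replicate 1 (adjusted p = 0.268), and with the smaller pseudocount (adjusted p = 0.15).

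Wild type labelled 37 °C against WT_S288C, the same strain YAM1, gave 2 members higher and 2 lower (10.7% and 16.6% of mRNAs). PDC6 stood at 0.0248 and 0.0287 in WT_37C (243 and 242 reads) against 0.00478 and 0.00383 in WT_S288C (18 and 30 reads), a mean 6.22 times higher (1.69 ± 0.20, SE; limma adjusted p = 1.99e-06). ADH2 stood at 0.0511 and 0.0645 in WT_37C against 0.0236 and 0.025 in WT_S288C (1.07 ± 0.24, adjusted p = 0.00252). The rarest members were higher and the main ones lower, PDC1 at -0.68 ± 0.13 (adjusted p = 0.000467) and ADH1 at -0.58 ± 0.13 (adjusted p = 0.00207), a call of ADH1 that was lost without WT_37C replicate 1 (adjusted p = 0.070). WT_UPF1, also YAM1, had 3 members lower and none higher than WT_S288C on the deposited scale (69.8% and 1.28% of mRNAs), and 7 higher and none lower on the mRNA-median scale (37.1% and 23.2%), the median mRNA standing at -0.55. The 3 were ADH1 (-0.37, adjusted p = 0.021), ADH3 (-0.37, adjusted p = 0.0236) and ADH4 (-0.35, adjusted p = 0.0497), and 0 to 1 of these calls were left when any 1 of the 4 libraries was dropped. Temperature, library set and culture cannot be told apart in these 2 comparisons.

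Terminator removes RNA that carries a 5'-monophosphate, and its effect differed between xrn1 and wild-type S288C cells for 5 of the 8 genes on the deposited scale, by the test of the difference itself. Of all mRNAs 87.8% were lower and 0.175% higher in the same test, so the difference is not particular to these genes. Terminator libraries were set against rRNA-depleted ones, so each change holds both treatments. The snoRNAs that set the scale took 9.34% and 9.44% of reads in WT_S288C and 8.29% and 7.90% in WT_S288C_Ter. They took 5.33% and 5.48% in xrn1_S288C and 7.29% and 7.15% in xrn1_S288C_Ter. How Terminator acted on them was not tested. In WT_S288C 3 members were higher in the treated libraries and none lower (11.1% and 15.6% of mRNAs), namely ADH2 by 0.86 ± 0.17 (SE; limma adjusted p = 0.000279), ADH1 by 0.56 ± 0.14 (adjusted p = 0.00439) and PDC1 by 0.54 ± 0.14 (adjusted p = 0.00544). In xrn1_S288C 1 was higher and 4 were lower (1.78% and 88.4% of mRNAs). Relative to the median mRNA, which stood at -1.10, it was 5 higher and 1 lower (45.1% and 26.4%).

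ADH4 stood at 1.08 and 1.13 in xrn1_S288C_Ter against 3.03 and 2.95 in xrn1_S288C (-1.43 ± 0.15, SE; limma adjusted p = 1.18e-09), and at 0.47 and 0.491 in WT_S288C_Ter against 0.53 and 0.559 in WT_S288C. ADH5 stood at 0.403 and 0.444 in xrn1_S288C_Ter against 0.984 and 1.04 in xrn1_S288C (-1.24 ± 0.15, adjusted p = 7.11e-09), and PDC5 at 0.22 and 0.212 in xrn1_S288C_Ter against 0.455 and 0.42 in xrn1_S288C (-0.99 ± 0.16, adjusted p = 2.54e-06). Relative to the median mRNA ADH4 was lower by a smaller amount (-0.20, adjusted p = 0.0126), and ADH5 (-0.0073, adjusted p = 0.923) and PDC5 (0.24, adjusted p = 0.124) were not called. On the deposited scale these 3 genes were higher in xrn1 cells and lower after Terminator in those cells, whereas PDC6 and ADH2, also higher in xrn1 cells, were not called after Terminator (-0.15 and 0.21, adjusted p = 0.528 and 0.25). Relative to the median mRNA both were called higher (1.08 and 1.44, limma adjusted p = 0.000124 and 1.06e-06). PDC6 rested on 34 and 31 reads in xrn1_S288C_Ter. ADH3 was lower on the deposited scale, at -0.51 (adjusted p = 0.00415), and PDC1 was higher by 0.42 (adjusted p = 0.00788), a call lost without xrn1_S288C replicate 2 (adjusted p = 0.0717). PDC1 stood at 196 and 188 in xrn1_S288C_Ter against 150.6 and 136 in xrn1_S288C.

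The difference between the Terminator responses, xrn1_S288C minus WT_S288C, was called for 5 members, all lower (87.8% of mRNAs lower and 0.175% higher). It was -1.48 ± 0.21 for ADH5 (SE; limma adjusted p = 6.08e-07), -1.25 ± 0.22 for ADH4 (adjusted p = 1.09e-05) and -1.08 ± 0.23 for PDC5 (adjusted p = 0.000138). For ADH2 it was -0.65 ± 0.24 (adjusted p = 0.0136), a call lost without xrn1_S288C replicate 2 (adjusted p = 0.0606) or WT_S288C_Ter replicate 1 (adjusted p = 0.051), and with the larger pseudocount (adjusted p = 0.0555). For ADH3 it was -0.62 ± 0.22 (adjusted p = 0.0131), a call lost without WT_S288C_Ter replicate 2 (adjusted p = 0.0626) or xrn1_S288C_Ter replicate 1 (adjusted p = 0.0547). The median difference was -1.03 for all mRNAs. On the mRNA-median scale 5 members were higher and 1 lower (34.2% and 16.2% of mRNAs), the lower one being ADH5 (-0.34, adjusted p = 0.00777). The differences of ADH4 and PDC5 were not called there (-0.11 and 0.063, adjusted p = 0.337 and 0.814), and ADH2 and ADH3 were among the higher ones (0.49 and 0.53).

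At 37 °C Terminator left 3 members higher and none lower in dcp2_37C (20.4% and 3.85% of mRNAs), and likewise 3 and none in WT_37C (17.9% and 2.43%), with the median mRNA at 0.16 and 0.16. They were PDC1, ADH1 and ADH2, by 0.60, 0.66 and 0.66 in dcp2_37C (limma adjusted p = 0.00262, 0.00103 and 0.00462) and by 0.54, 0.52 and 0.53 in WT_37C (adjusted p = 0.00764, 0.00949 and 0.0256). The 3 calls in WT_37C were lost without WT_37C replicate 1 (adjusted p 0.218 to 0.264) or WT_37C_Ter replicate 2 (adjusted p 0.126 to 0.180). In dcp2_37C those of PDC1 and ADH2 were lost without dcp2_37C replicate 2 (adjusted p = 0.0844 and 0.0818), and that of ADH2 without dcp2_37C_Ter replicate 2 (adjusted p = 0.0662). ADH4 stood at 1.22 and 1.18 in dcp2_37C_Ter against 1.33 and 1.03 in dcp2_37C, where the ranges overlapped. No member had a called difference between the responses of dcp2_37C and WT_37C, nor did more than 0.0175% of mRNAs in either direction (0.0175% higher). The 8 estimates lay between 0.02 and 0.25.

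**Figure D4:**
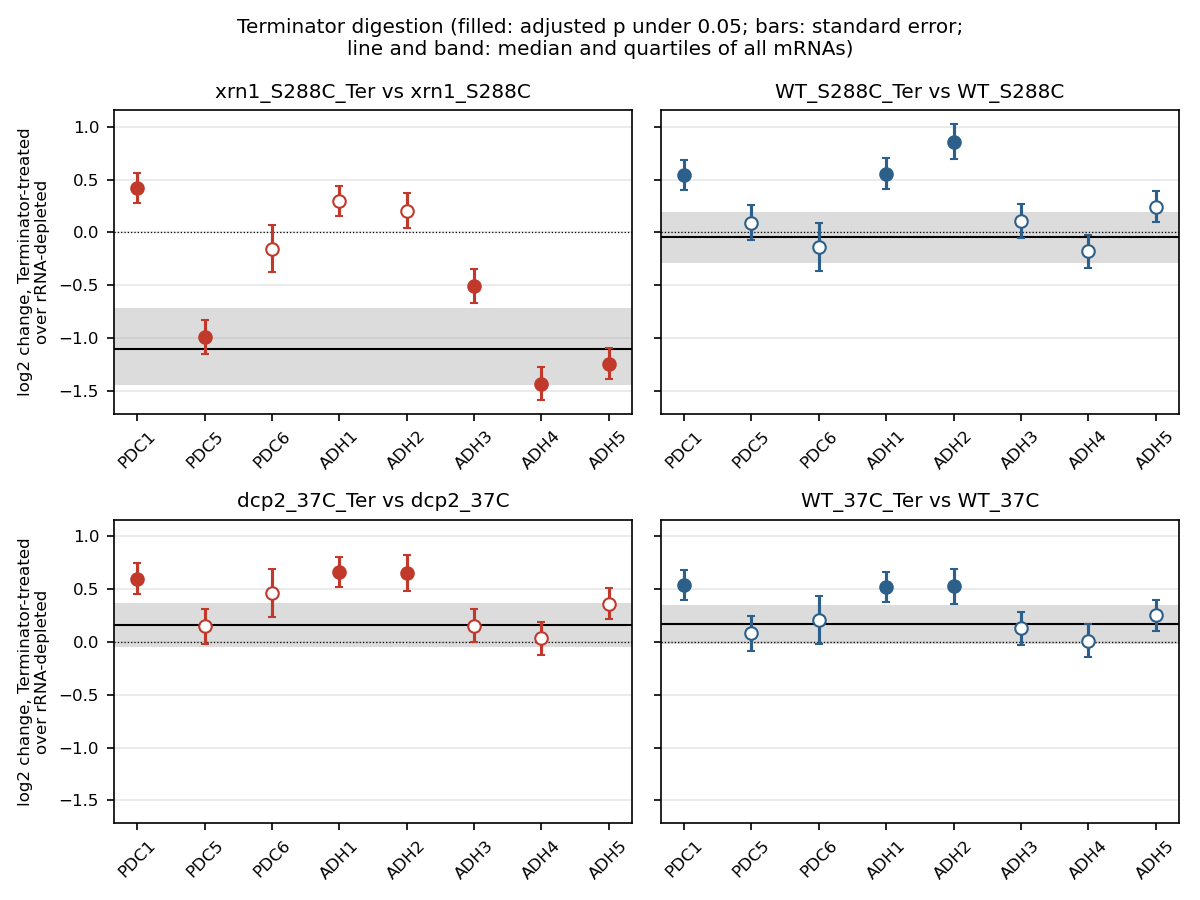
Log2 change of each gene between Terminator-treated and rRNA-depleted libraries of xrn1_S288C, WT_S288C, dcp2_37C and WT_37C (points, bars are limma SE, filled at an adjusted p under 0.05), with the median (line) and quartiles (band) of all mRNAs. ADH4, ADH5 and PDC5 lie at -1.43, -1.24 and -0.99 in xrn1_S288C, near the mRNA median of -1.10, while PDC1, ADH1 and ADH2 lie above 0 in all 4 panels.

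Capped 5' ends were listed within 200 nt upstream of the start codon, on the gene's strand, for 5 of the 8 genes in dcp2-7 and for 7 in wild type, beside 71.3% of all genes in dcp2-7 and 71.7% in wild type. The lists were pooled per genotype by the authors and hold no height, so a missing position is not a level of 0. PDC1 had a position 31 nt upstream in both lists, ADH1 at 29 and 39 nt in both, ADH2 at 56 and 59 nt in both, ADH3 at 54 nt in both and ADH5 at 56 nt in both. The wild-type list held further positions for PDC5 (43 nt), PDC6 (33 nt) and ADH3 (31 nt). ADH4 had none in either list. The positions of ADH2, at 874393 and 874396 on chromosome XIII, lie inside CUT791, an annotated cryptic unstable transcript on the same strand (874390 to 874550). They are near its 3' end, while its annotated 5' end lies at 874550. Whether any of these caps belong to an RNA other than the mRNA was not tested.

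**Figure D5:**
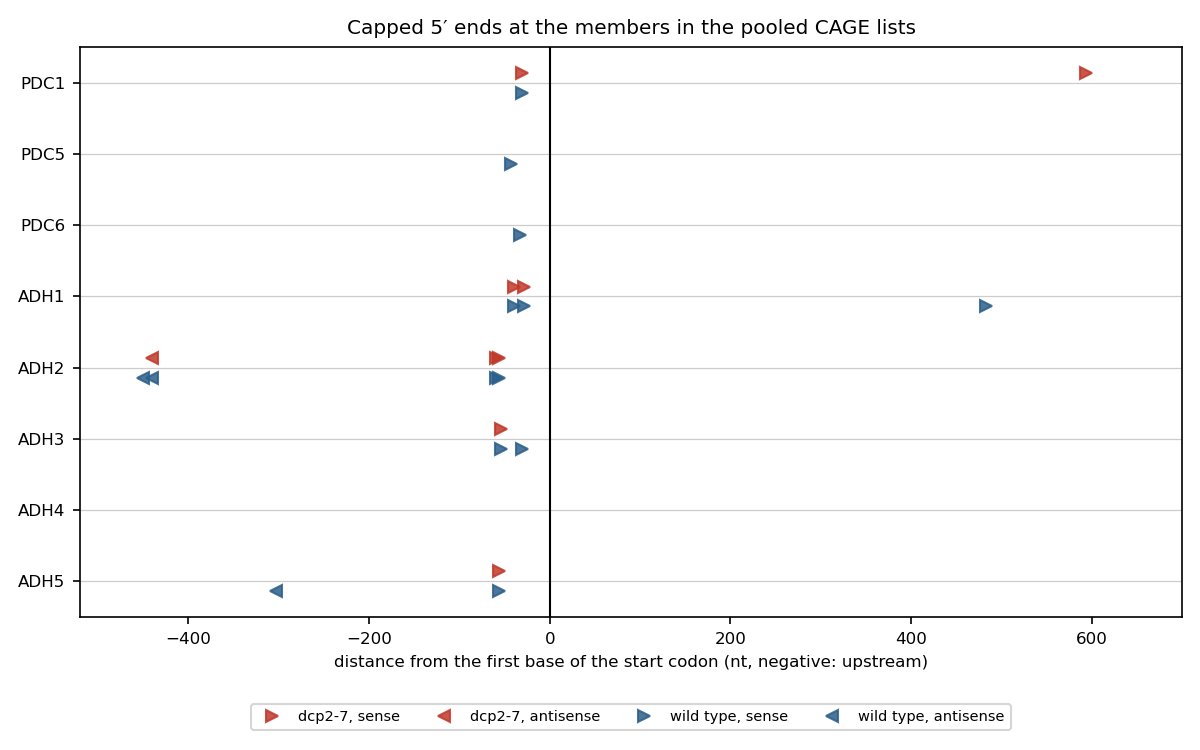
Listed CAGE positions around the start codon of each gene (distance in nt, negative is upstream), dcp2-7 above wild type, with sense and antisense positions marked. PDC1, ADH1, ADH2, ADH3 and ADH5 have sense positions 29 to 59 nt upstream in both lists, PDC5 and PDC6 in the wild-type list only, and ADH4 has none. Positions inside genes appear for PDC1 (dcp2-7, 595 nt) and ADH1 (wild type, 484 nt).

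Stretches of 3 promoters are shown because, on the deposited scale, ADH2 varied most across the groups and PDC1 and ADH1 varied least. Capitals mark matches to TTGGAG (a core of the site of Adr1, activator of ADH2) and TATAAA in ADH2, and to CTTCC (the core of the glycolytic activator Gcr1) and TATAAA in ADH1 and PDC1, on either strand, from R64.
ADH2, 300 to 151 nt upstream (chrXIII:874488-874637, minus strand): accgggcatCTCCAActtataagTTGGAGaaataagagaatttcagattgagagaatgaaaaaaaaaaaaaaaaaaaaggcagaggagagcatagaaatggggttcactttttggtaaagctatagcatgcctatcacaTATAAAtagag
ADH1, 340 to 101 nt upstream (chrXV:160695-160934, minus strand): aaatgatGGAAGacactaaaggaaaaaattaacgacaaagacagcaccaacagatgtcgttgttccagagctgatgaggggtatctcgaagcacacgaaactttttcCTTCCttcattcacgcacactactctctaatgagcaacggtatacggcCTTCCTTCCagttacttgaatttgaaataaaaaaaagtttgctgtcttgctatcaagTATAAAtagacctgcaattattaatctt
PDC1, 640 to 561 nt upstream (chrXII:234642-234721, minus strand): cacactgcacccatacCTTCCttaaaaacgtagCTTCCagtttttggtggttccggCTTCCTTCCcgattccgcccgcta
In the 700 nt upstream of 5772 genes, TTGGAG on either strand was found in 27.5%, and 4.38% had at least the 2 matches of ADH2, which lie 291 and 277 nt upstream in opposite orientation. ADH4 had 1 and the other members none. CTTCC was found in 77.5% of promoters, and 0.849% had at least the 6 matches of ADH1 and 8.75% the 4 of PDC1. PDC5 and PDC6 had none. ACCCANACA, a core of the Rap1 site, was found in 4.05% of promoters and in ADH1 among the members, and TATAAA in 69.0%, in all members except PDC5. TTACCCG, a core of the Reb1 site, was found in 12.1% of promoters and in no member. These counts describe letters in a window, in the reference of S288C and not in SK1 or W303.

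Several members lie beside or under annotated non-coding RNAs, and those at ADH2 and ADH5 were measured as well. XUT0741 (chromosome XIII, 872993 to 874449, plus strand) runs antisense over all 1047 nt of ADH2, and XUTs are by definition RNAs that accumulate without Xrn1. It stood at 0.693 and 0.609 in xrn1_S288C against 0.0666 and 0.0623 in WT_S288C, and at 0.516 and 0.50 in upf1 against 0.050 and 0.0492 in WT_UPF1. The upf1 change was 3.21 (limma adjusted p = 2.16e-12; 2.60 on the mRNA-median scale), in the same cells in which ADH2 itself was not called. In dcp2_37C it stood at 0.27 and 0.219 against 0.0653 and 0.0739 in WT_37C (log2 change 1.73, adjusted p = 5.08e-08), where ADH2 was higher as well. XUT0741 did not differ detectably between WT_SK1 and WT_S288C (0.10, adjusted p = 0.689), although ADH2 differed 166-fold. The strand setting of the counting was not given in the sources used here. In WT_SK1 replicate 1, ADH2 had 18822 reads and XUT0741 402, and in upf1 replicate 1 ADH2 had 112 and XUT0741 2374. Most reads of each were thus not counted to the other in these libraries. Whether a smaller share was counted so was not tested.

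At ADH5, XUT0066 (chromosome II, 532468 to 533378, plus strand) ends 384 nt upstream on the same strand, and XUT0981 (533843 to 534992, minus strand) covers 92.3% of the gene in antisense. XUT0066 stood at 0.376 and 0.383 in xrn1_S288C against 0.0168 and 0.0202 in WT_S288C, and at 0.0907 and 0.0597 in upf1 against 0.00856 and 0.00778 in WT_UPF1. Its log2 change was 3.99 in xrn1_S288C, 2.46 in dcp2_37C and 2.51 in upf1 (limma adjusted p = 1.11e-15, 1.90e-11 and 7.94e-12). XUT0981 changed by 2.14, 1.24 and 1.31 in the same mutants (adjusted p = 5.98e-11, 1.28e-06 and 7.10e-07). ADH5 and both neighbouring RNAs were called higher in these 3 mutants on the deposited scale, where 94.8%, 80.2% and 47% of all mRNAs were higher too. SUT252, which starts 471 nt upstream of PDC1 in the opposite direction, changed by 2.26, 2.31 and 0.87, and XUT0364, 468 nt upstream of PDC6 in the opposite direction, by 1.91, 0.98 and 0.53. After mRNA-median scaling XUT0364 was not called in any of the 3 (0.14, 0.13 and -0.086, adjusted p = 0.542, 0.597 and 0.72), nor was SUT252 in upf1 (0.26, adjusted p = 0.145). XUT0066 and XUT0981 were called higher there as well, XUT0066 by 2.22, 1.61 and 1.90 and XUT0981 by 0.38, 0.39 and 0.69. ADH5 itself was called higher there in xrn1_S288C (0.60) and upf1 (0.36) but not in dcp2_37C (0.15, limma adjusted p = 0.394).

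The rest of the pathway was read from 7 lists of related genes. In xrn1_S288C 6 of 17 glycolysis genes were higher and none lower on the deposited scale, with a median change of 0.18 against 1.58 for all mRNAs. When scaled to the median mRNA, 1 was higher and 14 were lower. The minor hexokinase gene HXK1 (3.37), the glucokinase gene GLK1 (1.85) and the minor pyruvate kinase gene PYK2 (1.75) changed most. All 7 genes of acetaldehyde and acetate use were higher, led by the aldehyde dehydrogenase genes ALD3 (2.86), ALD4 (2.16) and ALD5 (1.92), with a median of 1.72. All 7 other dehydrogenase and decarboxylase genes were higher, led by ARO10 (2.93), a decarboxylase of aromatic 2-oxo acids. Of the 12 regulators 11 were higher, led by ADR1 (2.47), and all 12 genes regulated by Adr1 and Cat8, activators of growth on ethanol, were higher, led by PCK1 (4.08) of gluconeogenesis. These counts stand beside the 94.8% of all mRNAs called higher. When scaled to the median mRNA, 2 of the 7 acetaldehyde and acetate genes were higher and 3 lower, 3 and 3 of the 7 other dehydrogenase and decarboxylase genes, 2 and 6 of the 12 regulators, and 4 and 2 of the 12 genes regulated by Adr1 and Cat8, beside 27.7% and 46.7% of all mRNAs.

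In W303, SK1 and SK1_2n, 12, 10 and 16 of the 17 glycolysis genes were higher and 0, 1 and 0 lower on the deposited scale. Of all mRNAs 97.6%, 92.9% and 97.2% were higher and 0.243%, 1.08% and 0.399% lower. On the mRNA-median scale 2, 3 and 1 glycolysis genes were higher and 14, 14 and 16 lower. Of all mRNAs 29%, 31.2% and 28.6% were higher and 46.2%, 46% and 53% lower there. All 8 zinc-regulon genes were higher in xrn1_S288C with a median of 2.18, led by the zinc transporter gene ZRT2 (2.69), beside 94.8% of all mRNAs. On the mRNA-median scale 5 were higher and 1 lower, beside 27.7% and 46.7% of all mRNAs. There the zinc genes gave 1 higher and 4 lower in W303, 4 and 1 in SK1, and 1 and 4 in SK1_2n. Of the 13 thiamine genes 11 were higher in xrn1_S288C, with a median of 1.94, and 4 were higher and 4 lower on the mRNA-median scale. The shares of all mRNAs in xrn1_S288C are those given with the zinc genes. In upf1 the thiamine genes were higher for 13 of 13 (median 1.33, against 0.32 for all mRNAs), led by THI21 (2.75), THI11 (1.78) and THI6 (1.77), and 9 were higher and none lower on the mRNA-median scale, beside 47% and 21.3% of all mRNAs called higher on the 2 scales. THI5, THI11, THI12 and THI13 are near-identical copies whose reads may be shared, so their values are uncertain. In the same cells none of the 17 glycolysis genes were higher and 2 were lower, HXK1 at -1.04 and GLK1 at -0.73, and on the mRNA-median scale all 17 were lower (median -0.58), beside 54.2% of all mRNAs.

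In dcp2_37C 9 of the 12 genes regulated by Adr1 and Cat8 were higher and none lower, beside 80.2% and 1.55% of all mRNAs. They were led by CYB2 (2.26), PCK1 (2.02) and JEN1 (2.00). On the mRNA-median scale 5 were higher and 2 were lower, beside 23.4% and 42.1% of all mRNAs. The acetaldehyde dehydrogenase gene ALD6 was lower (-2.18, limma adjusted p = 5.05e-12). In WT_SK1 against WT_S288C, where ADH2 was higher, 5 of the same 12 genes were higher and none lower, led by CYB2 (1.71), FBP1 (1.43) and ALD4 (1.18), beside 19.1% of all mRNAs. Of the 13 thiamine genes 11 were higher and 1 lower in WT_SK1, led by the thiamine transporter gene THI7 (3.22). Of the 17 glycolysis genes 8 were lower, such as ENO2 (-1.20), and 2 were higher, HXK1 (2.89) among them. Of all mRNAs 29.7% were lower and 19.1% higher in this comparison. In WT_37C against WT_S288C 12 of 17 glycolysis genes were lower and 3 higher, of which TDH1 changed most (2.55), and 7 of the 12 genes regulated by Adr1 and Cat8 were higher, beside 16.6% of all mRNAs lower and 10.7% higher.

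Of the 8 members, 7 were also set beside the 2 other mRNAs whose pattern over the 12 rRNA-depleted group means was most like that of the member, as Pearson's r of log2 values on the mRNA-median scale among 2899 mRNAs. These are descriptions over 12 points that share mutants and strains. The same library median is subtracted from every gene, and it ran from 0.0725 to 1.12 in density. PDC1 and ADH1 varied 2.23 and 2.56 times in density over the groups. The part of the subtracted median in these r values was not tested. PDC1 was closest to EFT2 (r = 0.994) and RPS1B (0.992), and ADH1 to GSH2 (0.990) and GUS1 (0.989). ADH2 was closest to the thiamine transporter gene THI7 (0.979) and YEH1 (0.976), ADH4 to NSE5 (0.965) and DAL7 (0.957), and PDC5 to the flocculin gene FLO11 (0.921) and ACH1 (0.918). ADH3 was closest to WTM1 (0.939) and AAH1 (0.934), and PDC6 to MIM2 (0.888) and BOL3 (0.862). Among the members themselves the closest pair was PDC1 and ADH1 (r = 0.964), and PDC5 and ADH2, both high in SK1, had an r of 0.864. THI7 averaged 2.55 in WT_SK1 and 0.268 in WT_S288C, DAL7 averaged 1.17 in xrn1_S288C and 0.0781 in WT_S288C, and FLO11 averaged 3.29 in WT_SK1 and 0.00741 in WT_S288C.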

How the data were processed

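Per the labels' protocols, hot-phenol RNA (125 ng) went through RiboMinus or Terminator and into stranded libraries with paired reads of 50 nt. The submitters' processing notes name Bowtie, TopHat and cutadapt without versions, and the genome build and counting settings were not given. The signal in the authors' deposited table is called a density there. Multiplied by feature length it gave whole multiples of 1 value per library in 100% of values (tolerance 0.01), so reads could be recovered, and its sum over snoRNAs was equal in all libraries. CAGE data were deposited by the authors as positions, pooled per genotype. Of 5798 genes 5789 matched R64 by name and 5757 had the same coordinates, all 8 members among them. The number of columns with values of no sample was 0.

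Values were taken as log2(density + pseudocount), with the 5th percentile of non-zero densities as pseudocount (0.00577 for 24 rRNA-depleted libraries, 0.00841 for the 16 libraries of the Terminator comparisons). A feature was tested if 2 or more libraries reached this value, which left 9712 (5760 mRNAs) and 9615 (5715 mRNAs). Since the file held densities and not counts, limma 3.58.1 in R 4.3.3 was used, with trend and robust empirical Bayes and 12 and 8 residual degrees of freedom, two-sided tests, Benjamini-Hochberg adjustment over all features and a threshold of 0.05. The mRNA-median scale repeats this with each library centred on its median mRNA. Ratios were tested with exact permutation. Differences between backgrounds and between Terminator responses are interaction terms. The scripts were tested on simulated data. Python 3.11.15, pandas 2.3.3, numpy 2.4.6, scipy 1.17.1 and matplotlib 3.10.9 were used. With limma voom on the recovered reads, 5507 of 5760 mRNAs were called in xrn1_S288C, against 5476 on densities.

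The series design calls the 2 samples of a group biological replicates. Same-numbered replicates of mutant and wild type had deviations that correlated by -0.0707 to 0.0600, and those of Terminator and rRNA-depleted libraries by -0.163 to 0.268. The labels do not tie equal numbers to shared cultures, so the numbers were not taken as pairs. The named genes are the 8 members, the targeted genes XRN1, DCP2 and NAM7, up to 3 genes with the largest change from each pathway list, and for each member the 2 mRNAs of most similar pattern, of which those of ADH5 are not reported here. The members and lists were chosen with earlier results of these data known. Alternatives were other pseudocounts, no filter, the mRNA-median scale, voom, the compared groups alone, a replicate block, a block within Terminator pairs (added later) and each replicate left out. No amino acid sequences were used here.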

Additional observations from a re-analysis of the deposited data

Results flagged for a closer look

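The xrn1 change of some genes differed between backgrounds by an interaction test. On the log2 scale the W303 change minus the S288C change was 0.87 for PDC5 and 0.55 for ADH5. The SK1 change minus the S288C change was -0.70 for PDC5, 0.55 for ADH1 and -0.49 for ADH3. The SK1_2n change minus the SK1 change was 0.78 for PDC1, -0.93 for PDC6, 0.89 for ADH1, 1.35 for ADH3, 1.82 for ADH4 and -0.82 for ADH5. The last 6 rest on WT_SK1_2n, whose median mRNA density was 0.0725 and 0.0876, and its part in them was not tested.

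The Terminator response also differed between xrn1_S288C and WT_S288C, by -1.08 for PDC5, -0.65 for ADH2, -0.62 for ADH3, -1.25 for ADH4 and -1.48 for ADH5. Each of these differences passed an interaction test in limma at an adjusted p under 0.05 on the deposited scale, where 87.8% of all mRNAs were lower too. On the mRNA-median scale ADH5 was lower (-0.34), ADH2 (0.49) and ADH3 (0.53) were higher, and PDC5 and ADH4 were not called.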

How the results depend on the processing

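Scaling the libraries to the same median mRNA turned 52 of 160 changes of single genes to the other direction. In xrn1_S288C these were PDC5 (-0.30), PDC6 (-0.67), ADH2 (-0.73) and ADH3 (-0.95), and in xrn1_W303 PDC1 (-1.79), PDC6 (-1.33), ADH1 (-2.11), ADH2 (-0.41) and ADH3 (-0.94). In xrn1_SK1 they were PDC5 (-0.92), PDC6 (-0.088), ADH1 (-1.55), ADH2 (-1.38) and ADH3 (-1.36), and in xrn1_SK1_2n PDC1 (-2.67), PDC5 (-2.35), PDC6 (-2.77), ADH1 (-2.42), ADH2 (-2.45), ADH3 (-1.76) and ADH5 (-1.67). In dcp2_37C they were PDC5 (-0.24), ADH1 (-0.71) and ADH3 (-0.54), and in upf1 PDC1 (-0.61), PDC6 (-0.10) and ADH3 (-0.37). Of the wild types, WT_SK1_2n against WT_SK1 gave PDC1 (0.85), PDC5 (0.95), PDC6 (0.78), ADH1 (0.72), ADH2 (0.96) and ADH3 (0.50), and WT_UPF1 against WT_S288C gave PDC1 (0.35), PDC5 (0.43), ADH1 (0.29), ADH3 (0.29) and ADH4 (0.31). The xrn1 change in SK1_2n minus SK1 gave PDC1 (-0.97), PDC5 (-1.43), ADH1 (-0.87), ADH2 (-1.07) and ADH3 (-0.41). With Terminator in xrn1_S288C they were PDC5 (0.24), PDC6 (1.08) and ADH3 (0.73), and in its difference from WT_S288C PDC1 (1.03), PDC5 (0.063), PDC6 (1.13), ADH1 (0.89), ADH2 (0.49) and ADH3 (0.53). This scaling removes the difference between library medians, which is not the same number as the median change of all mRNAs given above. After it, that median change was still -0.185, -0.162, -0.145 and -0.301 in xrn1_S288C, xrn1_W303, xrn1_SK1 and xrn1_SK1_2n. It was -0.139 in dcp2_37C and -0.288 in upf1.

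The number of members called moved by over 1.5 times in these cases, and the cause was not tested. WT_UPF1 against WT_S288C had 7 on the mRNA-median scale and 5 with those groups alone, W303 minus S288C had 1 and 6, Terminator in WT_S288C had 5 on the mRNA-median scale, in WT_37C 0 with those groups alone and in dcp2_37C 5 with voom. For WT_37C all 8 members had an adjusted p above 0.05 there by limma. ADH2/ADH1 was 0.61, 0.53 and 1.04 without S288C, W303 and SK1.

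Leaving out 1 replicate in turn gave 7 to 7 members called in xrn1_S288C, 6 to 7 in W303, 4 to 5 in SK1, 8 to 8 in SK1_2n, 4 to 6 in dcp2_37C, 3 to 4 in upf1, 2 to 2 in WT_W303, 4 to 5 in WT_SK1, 7 to 8 in WT_SK1_2n, 3 to 4 in WT_37C and 0 to 1 in WT_UPF1. It gave 1 to 2, 0 to 2 and 6 to 7 for the differences W303 minus S288C, SK1 minus S288C and SK1_2n minus SK1. For Terminator it gave 3 to 3 in WT_S288C, 4 to 5 in xrn1_S288C, 0 to 4 in WT_37C, 1 to 3 in dcp2_37C, and 4 to 5 and 0 to 0 for the differences. The ratios ranged from 1.14 to 1.17 (PDC5/PDC1), 0.73 to 0.85 (PDC6/PDC1), 0.69 to 0.95 (ADH2/ADH1), 0.79 to 0.83 (ADH3/ADH1), 2.85 to 2.89 (ADH4/ADH1) and 2.12 to 2.31 (ADH5/ADH1). A group left with 1 library was assumed to vary like the others.

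The labels do not say that equal replicate numbers mark shared cultures, and the deviations of same-numbered libraries correlated by -0.163 to 0.268, highest for WT_37C_Ter and WT_37C. With a replicate block 158 of 160 changes kept their call and direction, ADH1 after Terminator in xrn1_S288C was newly called (0.30, limma adjusted p = 0.0393) and ADH4 in WT_UPF1 was not (limma adjusted p = 0.0552). A block with the numbers crossed for WT_S288C and a model without the SK1_2n groups were added after seeing the data. The crossed block changed no call among 24, and without SK1_2n 3 further calls were made. A block for each same-numbered pair of a Terminator and an rRNA-depleted library, also added after seeing the data, kept 43 of 48 calls and directions and made 5 further calls. The calls of PDC1, ADH1 and ADH2 in WT_37C were among those kept (limma adjusted p = 3.05e-05, 3.46e-05 and 0.00874). The larger pseudocount gave smaller changes of ADH2 in WT_W303 (-0.46), WT_37C (0.63) and with Terminator in WT_S288C (0.45) and WT_37C (0.35), and of PDC6 in WT_37C (0.63) and WT_SK1_2n (-0.18), where the smaller one gave -1.71. PDC6, with 4 to 243 reads, and ADH2 outside SK1 limit what depth can show.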
